A study of Homo sapiens with 15 samples.

Results

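The genes described here are 431 RNAs whose symbol on the array's platform annotation ends in -AS1, out of 14884 named symbols. Such a symbol marks an antisense RNA, named after the protein-coding or other gene on the opposite strand. They were chosen by name alone, with no use of measured values, and each was represented by its brightest probe set (an array row summarising several probes), the one of highest mean over all arrays. Of the 461 rows with such a symbol, 23 symbols had more than 1 row. A row for the sense gene, the gene named before -AS1, was found for 288 of the 431 members, 287 by the platform symbol and 1 by an older synonym (ZBTB21 for ZNF295-AS1), while 143 members had no named sense row.

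The arrays measured Caco-2 cells, an established human colon carcinoma line whose confluent cultures take on enterocyte features, in 3 groups of 5. Control cells were untreated. LPS cells received lipopolysaccharide from the E. coli strain K12 (LPS, an endotoxin sensed through TLR4) at 1 µg/mL for 48 h. LPS+RSV cells were exposed to trans-resveratrol (RSV), a polyphenol found in grapes and other plants, at 50 µM in ethanol, starting 1 h before the same LPS exposure. Every group was the same line, used 15 to 19 days after seeding; the labels do not say whether control and LPS cells received ethanol, nor whether the numbered replicates were separate cultures, so p-values measure the spread between arrays alone, and that spread may be technical. Whether an array came from an earlier or a later day after seeding is not given in the sources used here.

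Natural antisense RNAs are transcribed from the strand opposite to another gene and may overlap it, or start beside it from a shared bidirectional promoter. Several act in cis, by recruiting chromatin factors or by interfering with transcription or processing of the sense RNA, and others act elsewhere in the cell or have no known function. In colorectal tumours and cell lines a number of them, such as FEZF1-AS1, MNX1-AS1 and VPS9D1-AS1, are studied as growth-related RNAs.

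The promoters of 4 members on which the results turn are shown, from RefSeq's GRCh38.p14, each 250 bases before to 50 bases after the annotated start, read 5′ to 3′ on the antisense RNA's strand. ZBED5-AS1 lies on the plus strand at chr11:10857967-10858266, SSTR5-AS1 on the minus strand at chr16:1078682-1078981 and URB1-AS1 on the plus strand at chr21:32392883-32393182. In these 3 the sense gene starts close by on the other strand, 164, 95 and 121 bases away, and capitals mark the stretch from the sense start to the antisense start. TMEM44-AS1 lies on the plus strand at chr3:194584018-194584317, 49151 bases from the start of TMEM44, and capitals mark its first 50 transcribed bases.
ZBED5-AS1: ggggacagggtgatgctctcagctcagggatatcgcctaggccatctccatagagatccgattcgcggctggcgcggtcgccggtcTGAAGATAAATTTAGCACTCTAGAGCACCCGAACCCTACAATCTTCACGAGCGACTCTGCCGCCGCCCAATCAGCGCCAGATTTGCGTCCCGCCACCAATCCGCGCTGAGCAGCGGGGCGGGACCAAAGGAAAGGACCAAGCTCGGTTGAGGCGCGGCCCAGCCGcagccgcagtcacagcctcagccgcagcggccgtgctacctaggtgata
SSTR5-AS1: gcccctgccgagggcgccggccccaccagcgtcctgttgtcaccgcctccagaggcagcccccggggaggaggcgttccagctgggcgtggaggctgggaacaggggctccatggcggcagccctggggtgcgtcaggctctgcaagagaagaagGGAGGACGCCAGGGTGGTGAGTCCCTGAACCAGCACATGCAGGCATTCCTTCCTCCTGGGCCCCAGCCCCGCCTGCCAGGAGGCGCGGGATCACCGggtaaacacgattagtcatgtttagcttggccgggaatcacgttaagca
URB1-AS1: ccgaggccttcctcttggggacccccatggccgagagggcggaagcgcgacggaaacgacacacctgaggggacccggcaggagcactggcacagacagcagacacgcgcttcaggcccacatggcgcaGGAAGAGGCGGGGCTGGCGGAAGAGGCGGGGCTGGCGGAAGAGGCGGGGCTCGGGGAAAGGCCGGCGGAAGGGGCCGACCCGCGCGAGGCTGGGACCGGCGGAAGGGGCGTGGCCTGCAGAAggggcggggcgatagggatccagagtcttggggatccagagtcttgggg
TMEM44-AS1: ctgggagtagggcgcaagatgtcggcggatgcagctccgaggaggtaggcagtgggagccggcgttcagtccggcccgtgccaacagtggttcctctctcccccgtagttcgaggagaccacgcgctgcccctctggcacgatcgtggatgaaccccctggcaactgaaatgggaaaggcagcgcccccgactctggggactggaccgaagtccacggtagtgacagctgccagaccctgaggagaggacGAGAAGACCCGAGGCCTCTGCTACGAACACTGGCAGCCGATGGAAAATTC

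These promoters were rich in G and C, at 62.7% for ZBED5-AS1, 67.0% for SSTR5-AS1, 71.3% for URB1-AS1 and 63.3% for TMEM44-AS1. RefSeq's promoter table held 328 of the 431 members, with a median G and C content of 60.3% against 58.3% over all 27305 promoters in it. The median number of CpG dinucleotides was 18 in the members' promoters and 14 in all promoters. Among the 59 members whose start lies within 1000 bases of the sense start the medians were 67.3% and 28. Short motifs were searched on both strands, with overlaps between motifs allowed: TATAAA (the TATA box), CCAAT (bound by NF-Y), GGGCGG (a GC box) and CCGGAAG (an ETS site). TATAAA was found in 7.93% of the members' promoters and in 12% of all promoters, CCAAT in 34.5% and 35.7%, GGGCGG in 44.8% and 44.6%, and CCGGAAG in 9.76% and 10.7%. In the 59 with adjacent starts GGGCGG was found in 67.8% and TATAAA in 1.69%. The ZBED5-AS1 window held CCAAT 2 times and GGGCGG 2 times, the URB1-AS1 window held GGGCGG 2 times, and the windows of SSTR5-AS1 and TMEM44-AS1 held no match to these letters.

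Array medians over all rows lay between 5.49 and 5.54. Of the 12 enterocyte and colon epithelium markers with a row (of 16 listed), 12 passed the filter on low signal and 9 lay among the brightest 10% of rows. Of the markers of other cell types with a row, 2 of 3 fibroblast, 2 of 2 immune (CD68 and LYZ), 2 of 3 endothelial, 1 of 1 goblet and 2 of 2 enteroendocrine genes passed it; their part in the results was not tested. The array of LPS+RSV replicate 1 stood apart: the median deviation of the members was 0.098, against -0.067 to 0.039 on the other 14 arrays. The median over all tested genes was 0.061 there. Differences between the groups may be part of these deviations. A cell cycle score, the mean deviation of 31 division and replication genes, had a lowest and highest value of -0.98 and 0.44 in control, -0.011 and 0.96 in LPS, and -0.83 and 0.44 in LPS+RSV. Values with the score as a covariate or without that array are given for part of the named results. A result without them need not be unmoved. PAX8-AS1, for example, changed by -0.073 in LPS against control, and by -0.28 with the score as a covariate.

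The antisense RNAs were mostly dim. Their mean log2 signals ran from 2.31 (SLC9A9-AS1) to 9.04 (ADORA2A-AS1), with a median of 5.38 against 6.37 over all named symbols. A gene was tested if, on at least 5 of the 15 arrays, its signal passed the 40th percentile of that array's rows. This percentile lay between 5.03 and 5.09 on the 15 arrays. By that filter 284 members (65.9%) were tested and 147 were not, against 79.3% of all symbols. Only 39 members had a mean above 7, 9 a mean above 8 and 4 lay among the brightest 10% of rows. The signal of a probe set also depends on its probes, so these are levels of signal and not amounts of RNA.

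**Figure D1:**
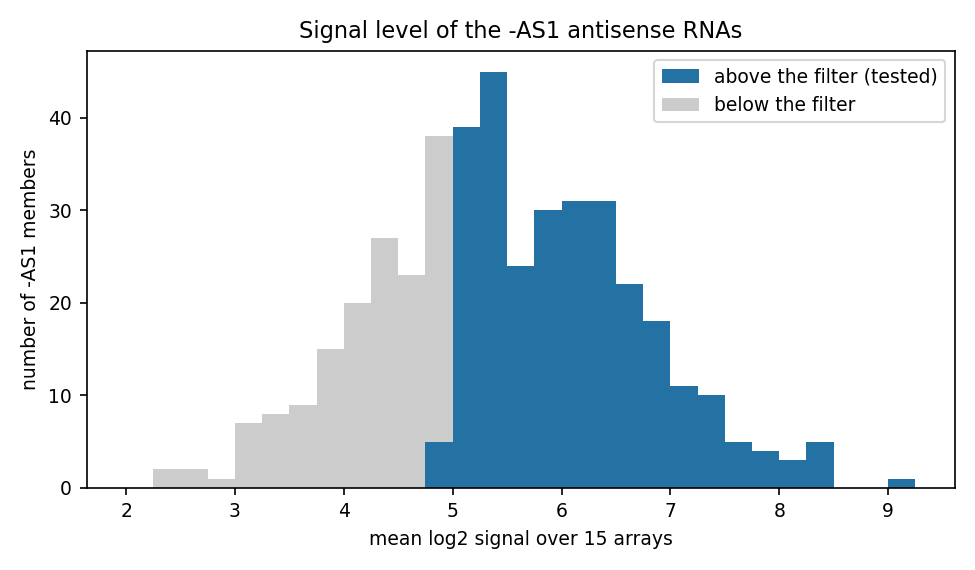
Number of -AS1 antisense RNAs (vertical axis) by mean log2 signal over the 15 arrays (horizontal axis), with the 284 tested members in blue and the 147 below the filter in grey. Most members lie between 4 and 7, and 9 lie above 8.

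The 10 brightest members were ADORA2A-AS1 (9.04), TMEM44-AS1 (8.43), PITPNA-AS1 (8.40), EPB41L4A-AS1 (8.34), PAX8-AS1 (8.31), SVIL-AS1 (8.26), PSMA3-AS1 (8.10), WAC-AS1 (8.09), LBX2-AS1 (8.08) and URB1-AS1 (7.85), as mean log2 signals over 15 arrays. Their sense genes span an adenosine receptor (ADORA2A), a phosphatidylinositol transfer protein (PITPNA), the transcription factors PAX8 and LBX2, an actin-binding protein (SVIL), a proteasome subunit (PSMA3), an adaptor of histone H2B ubiquitination (WAC) and a ribosome biogenesis factor (URB1). Members varied between replicates about as much as other genes, with a median within-group SD of 0.158 against 0.158 over all 11804 tested genes.

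The question of the LPS comparison is what endotoxin alone did to these RNAs. No member was called by limma, that is, none had an adjusted p (Benjamini-Hochberg, 11804 genes) under 0.05, whereas 3 genes of all kinds did (0.0254%). At an unadjusted limma p under 0.05, 17 of 284 members were lower in LPS than in control (5.99%) and 3 were higher (1.06%), against a background of 3.26% of all genes lower and 4.62% higher. By direction alone, 176 members were lower and 108 higher, whereas 47.3% of all genes were lower and 52.7% higher. The members' median log2 change was -0.036, with quartiles of -0.11 and 0.052, and the median of all tested genes was 0.0071. The 3 on the higher side became 6 without LPS replicate 1 or without control replicate 1, 5 without control replicate 3 and 1 without LPS replicate 2.

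ZBED5-AS1, the divergent partner of a zinc finger gene derived from a transposase, had the lowest p. Its control arrays read 5.72, 5.92, 5.96, 5.88 and 5.97, and its LPS arrays 5.68, 5.27, 5.53, 5.39 and 5.66. All 5 LPS arrays lay below all 5 control arrays, LPS replicates 1 and 5 only just. The log2 change was -0.39 ± 0.08 (SE, n = 5 arrays a group), 23.5% lower, with a 95% interval of -0.56 to -0.21 and a limma adjusted p of 0.201. The change was -0.35 with the cell cycle score as a covariate.

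ELOA-AS1, antisense to the gene for elongin A (a transcription elongation factor subunit), read 7.72, 7.70, 7.76, 7.99 and 7.79 in control and 7.55, 7.34, 7.64, 7.52 and 7.40 in LPS. These groups did not overlap either, and the change was -0.30 ± 0.10 (limma adjusted p = 0.358). CCDC18-AS1, whose start lies 165095 bases from that of CCDC18, a coiled-coil protein gene, showed the largest change by size: 7.40, 7.64, 7.60, 7.41 and 7.77 in control against 6.94, 6.72, 7.21, 7.06 and 7.16 in LPS. Every LPS array was below every control array. The change was -0.55 ± 0.19 with a limma adjusted p of 0.476. That adjusted p was 0.0804 without LPS+RSV replicate 1 in the fit and 0.907 (change -0.42) without LPS replicates 1 and 2.

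Among the others, TMEM44-AS1 changed by -0.27 ± 0.09, ARHGAP5-AS1 by -0.22 ± 0.07 and BCL10-AS1 by -0.26 ± 0.09, with limma adjusted p from 0.381 to 0.428. BCL10 encodes an adaptor of NF-kappaB signalling. With the cell cycle score as a covariate TMEM44-AS1 and ARHGAP5-AS1 had smaller values of -0.14 and -0.18, and BCL10-AS1 a larger one of -0.36 (limma adjusted p = 0.0634). On the higher side, EHBP1-AS1 had 6.29, 6.15, 6.38, 6.40 and 6.42 in control and 6.48, 6.63, 6.49, 6.52 and 6.44 in LPS, all above control, a change of 0.19 ± 0.07 (limma adjusted p = 0.544). Groups without overlap numbered 1 higher (EHBP1-AS1) and 4 lower (CCDC18-AS1, ELOA-AS1, SH3BP5-AS1 and ZBED5-AS1) of 284, beside 1.08% and 1.13% of all genes (2.21% in either direction).

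**Figure D2:**
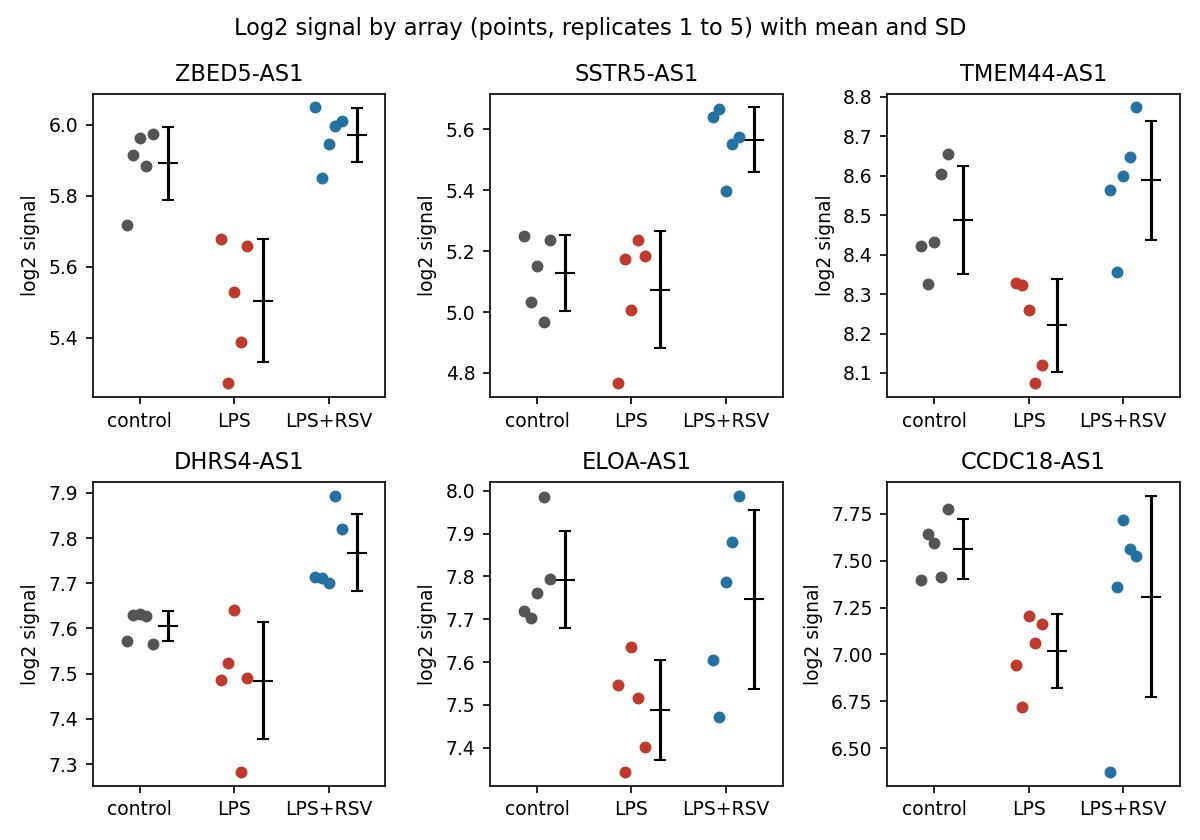
Log2 signal of 6 antisense RNAs by array in control, LPS and LPS+RSV, with points for replicates 1 to 5 and a bar for the mean and SD; each panel has its own vertical axis. ZBED5-AS1, ELOA-AS1 and CCDC18-AS1 have LPS arrays below control, SSTR5-AS1 and DHRS4-AS1 stand highest in LPS+RSV, and CCDC18-AS1 has a single low LPS+RSV array at 6.37.

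LPS+RSV set against LPS asks what resveratrol pretreatment added to endotoxin exposure. No member was called by limma at an adjusted p under 0.05, beside 5 genes of all kinds (0.0424%), and 2 members lay under 0.10, ZBED5-AS1 and SSTR5-AS1. At an unadjusted limma p under 0.05, 30 of 284 members were higher in LPS+RSV (10.6%) and 5 were lower (1.76%), while among all genes 8.08% were higher and 10.5% lower. By direction, 195 members were higher and 89 lower, beside 52.1% and 47.9% of all genes, with a median change of 0.053 against 0.0076 for all tested genes. Among the 5902 tested genes whose mean lay below the tested median, the median change was 0.026 and 58.5% were higher. At an unadjusted limma p under 0.05, 370 of them were higher and 273 lower (6.27% and 4.63%). Among the 5902 at or above the tested median, the median change was -0.024 and 45.6% were higher. At that p, 584 of these were higher and 968 lower (9.9% and 16.4%).

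The count of 30 rested in part on a few arrays. It was 19 without LPS+RSV replicate 1 and 19 without LPS replicate 1, and 16 with the cell cycle score as a covariate. The count of 5 lower members was 2 without LPS replicate 1 and 3 without LPS+RSV replicate 4 or 5. The members' median change stayed above 0 with each array left out in turn, from 0.037 to 0.066.

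ZBED5-AS1 was again the member of lowest p. Its LPS+RSV arrays read 6.05, 5.85, 5.95, 6.00 and 6.01, and all lay above the LPS arrays, of which the highest read 5.68. The log2 change was 0.47 ± 0.08, 38.1% higher, with a 95% interval of 0.29 to 0.64 and a limma adjusted p of 0.0573. It was 0.42 with the cell cycle score as a covariate (limma adjusted p = 0.0861). With each of the 10 arrays left out in turn, the limma adjusted p ran from 0.0344 to 0.148 and was under 0.05 in 2 of the 10 fits (without LPS replicate 3 or LPS+RSV replicate 2). Without LPS replicates 1 and 2 together it was 0.164.

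SSTR5-AS1, the divergent partner of a somatostatin receptor gene, read 4.77, 5.17, 5.01, 5.24 and 5.18 in LPS and 5.64, 5.67, 5.40, 5.55 and 5.58 in LPS+RSV. The groups did not overlap, and control, at 5.25, 5.03, 5.15, 4.97 and 5.24, lay among the LPS arrays. Control and LPS signals were thus near the filter, whose cut was 5.03 to 5.09, and the change is one of a dim probe set. The change was 0.49 ± 0.09, 40.7% higher, with a 95% interval of 0.30 to 0.69 and a limma adjusted p of 0.0586; it was 0.54 with the cell cycle score as a covariate. Leaving out 1 array at a time gave limma adjusted p from 0.0446 to 0.148, under 0.05 in 2 of 10 fits (again LPS replicate 3 and LPS+RSV replicate 2), and 0.2496 came without LPS replicates 1 and 2.

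TMEM44-AS1, the second brightest member, overlaps a gene for a membrane protein. It read 8.33, 8.32, 8.26, 8.07 and 8.12 in LPS and 8.56, 8.36, 8.60, 8.65 and 8.77 in LPS+RSV. All 5 LPS+RSV arrays were higher, replicate 2 by little, and the change was 0.37 ± 0.09 (limma adjusted p = 0.103, and from 0.0427 to 0.235 with 1 array left out, under 0.05 only without LPS+RSV replicate 2). Within groups its signal correlated with the cell cycle score at r = -0.91 over 15 arrays, and the change was 0.20 with the score as a covariate. DHRS4-AS1, overlapping the gene of a carbonyl and retinol reductase, read 7.49, 7.52, 7.64, 7.28 and 7.49 in LPS and 7.71, 7.71, 7.70, 7.89 and 7.82 in LPS+RSV. These groups did not overlap, and the change was 0.28 ± 0.07 (limma adjusted p = 0.104, and from 0.0456 to 0.224 with 1 array left out, under 0.05 only without LPS replicate 3).

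Next in order on the higher side were EPCIP-AS1 (0.37 ± 0.12) and RAB11B-AS1 (0.30 ± 0.10), with limma adjusted p of 0.153 and 0.163. RAB11B is a GTPase of recycling endosomes. EPCIP-AS1 differed by 0.22 without LPS replicates 1 and 2. The 6 members without overlap were all higher (DHRS4-AS1, HHIP-AS1, JMJD1C-AS1, SSTR5-AS1, TMEM44-AS1 and ZBED5-AS1), beside 1.41% of all genes higher and 1.39% lower in this way (2.8% in either direction).

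On the lower side the log2 changes were -0.26 for DLGAP1-AS1, -0.32 for ZNF667-AS1, -0.36 for FOXD2-AS1, -0.23 for MCF2L-AS1, -0.15 for ADD3-AS1 and -0.31 for THAP9-AS1, with limma adjusted p from 0.166 to 0.269. FOXD2-AS1, near a forkhead factor gene, read 7.98, 7.78, 7.62, 7.75 and 8.01 in LPS and 7.45, 7.86, 7.59, 7.22 and 7.20 in LPS+RSV, so the groups overlapped. Its change was -0.050 with the cell cycle score as a covariate. Smaller values came also for DLGAP1-AS1 (-0.14), ZNF667-AS1 (-0.17), MCF2L-AS1 (-0.13) and THAP9-AS1 (-0.13), and a larger one for ADD3-AS1 (-0.18). THAP9-AS1 differed by -0.15 without LPS+RSV replicate 1, which read 6.55 against 7.15 to 7.56 on the other 4 arrays of its group.

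**Figure D3:**
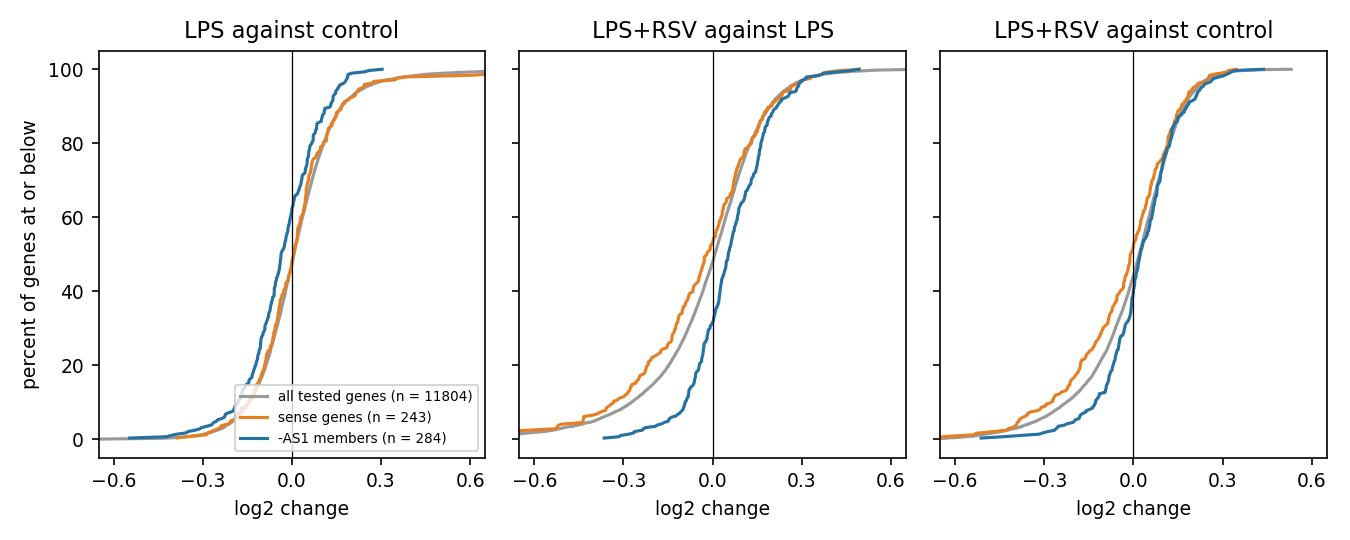
Cumulative percent of genes (vertical axis) at or below a given log2 change (horizontal axis) in the 3 comparisons, for all 11804 tested genes (grey), the 243 tested sense genes (orange) and the 284 tested antisense RNAs (blue). The blue curve lies to the left in LPS against control (median -0.036) and to the right in LPS+RSV against LPS (median 0.053); values beyond 0.65 in size are outside the axis.

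Both of these comparisons use the same 5 LPS arrays, so their values are given side by side and not as separate evidence. An unadjusted limma p under 0.05 in both was found for 6 of 284 members, beside 4.35% of all genes, so such members were no more frequent than that background. Of these, ZBED5-AS1 had -0.39 and then 0.47, TMEM44-AS1 -0.27 and 0.37, ELOA-AS1 -0.30 and 0.26, ARHGAP5-AS1 -0.22 and 0.16, ASB16-AS1 -0.17 and 0.20, and ZNF667-AS1 0.25 and -0.32. With the cell cycle score as a covariate, ELOA-AS1 had -0.21 and 0.14, and ARHGAP5-AS1 -0.18 and 0.11.

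LPS+RSV against control sets the pretreated, LPS-exposed cells against untreated ones. No member was called by limma, and no gene of any kind was (0.0%), with 0.464 as the smallest adjusted p of a member. At an unadjusted limma p under 0.05, 14 members were higher (4.93%) and 5 lower (1.76%), against 4.09% and 6.4% of all genes; the counts were 9 and 3 without control replicate 3. The median change was 0.023, beside 0.020 for all tested genes, and 170 members were higher and 114 lower, beside 55.8% and 44.2% of all genes. Among tested genes whose mean lay below the tested median, 4.98% were higher and 2.63% lower at that unadjusted p. The median change of these dimmer genes was 0.039, and 62.7% of them were higher by any amount. Among tested genes at or above the tested median, 3.2% were higher and 10.2% lower at that p. SSTR5-AS1 again had no overlap, with a change of 0.44 ± 0.09 (95% interval 0.24 to 0.63).

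IL21R-AS1, antisense to a cytokine receptor gene, read 4.84, 5.23, 5.37, 5.26 and 4.87 in control and 5.56, 5.39, 5.50, 5.44 and 5.34 in LPS+RSV, a change of 0.33 ± 0.10 with groups that overlapped. The other higher members by lowest p were C8orf34-AS1 (0.26), PCCA-AS1 (0.24), SPEN-AS1 (0.31) and DLG1-AS1 (0.26), as log2 changes. Lower were PRC1-AS1 (-0.26 ± 0.09), PSMA3-AS1 (-0.44 ± 0.16), NPPA-AS1 (-0.30 ± 0.11), NPSR1-AS1 (-0.51 ± 0.20) and NCAM1-AS1 (-0.20 ± 0.09), and BCL10-AS1 (-0.18 ± 0.09) had an unadjusted limma p of 0.0623. Without LPS+RSV replicate 1 the change was -0.25 for PSMA3-AS1, -0.28 for NPSR1-AS1 and -0.20 for NPPA-AS1. Members lying wholly above control numbered 4 (DHRS4-AS1, SOCS2-AS1, SSTR5-AS1 and TMEM147-AS1) and wholly below it 1 (PRC1-AS1), beside 0.627% and 1.09% of all genes (1.72% in either direction).

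Of a list of 25 antisense RNAs known from intestinal or tumour studies, 14 had a row and 12 were tested. Mean log2 signals were 8.34 for EPB41L4A-AS1, 7.65 for FOXD2-AS1, 7.31 for MNX1-AS1, 7.03 for MCM3AP-AS1, 7.02 for SLC25A25-AS1, 6.63 for EGFR-AS1, 6.46 for VPS9D1-AS1 and 5.43 for FEZF1-AS1. ST7-AS1 (5.38), SERTAD4-AS1 (5.24), ZEB1-AS1 (5.10) and NR2F1-AS1 (4.97) were near the filter, and CDKN2B-AS1 (ANRIL, at the cyclin-dependent kinase inhibitor locus) and PRKAG2-AS1 were below it at 4.98 and 4.74. None of the 12 was called by limma in any comparison. At an unadjusted limma p under 0.05, VPS9D1-AS1 was higher in LPS (0.18 ± 0.08) and in LPS+RSV (0.19 ± 0.08) than in control, FOXD2-AS1 was lower and EPB41L4A-AS1 higher (0.15 ± 0.07) in LPS+RSV than in LPS, and no other of the 12 was. Without control replicate 1 the VPS9D1-AS1 values were 0.11 and 0.11, and with the cell cycle score as a covariate its value in LPS was 0.16 (limma adjusted p = 0.432). EGFR-AS1 changed by 0.0072 in LPS against control and by 0.32 in LPS+RSV against LPS. With the score as a covariate these values were 0.34 and -0.099 (limma adjusted p = 0.284 and 0.851). The remaining 11 of the 25 were not analysed here.

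Of the 288 sense genes with a row, 243 were tested, and limma called none in any comparison. In LPS against control, 13 were higher and 8 lower at an unadjusted limma p under 0.05, with a median change of 0.0072. These were 5.35% and 3.29%, beside 4.62% and 3.26% of all genes. In LPS+RSV against LPS, 21 were higher and 36 lower (8.64% and 14.8%, beside 8.08% and 10.5%), with a median of -0.019. In LPS+RSV against control, 9 were higher and 25 lower (3.7% and 10.3%, beside 4.09% and 6.4%), with a median of -0.0092. The share lower varied with signal. Among all tested genes at or above the tested median it was 16.4% in LPS+RSV against LPS and 10.2% in LPS+RSV against control. Below that median it was 4.63% and 2.63%. Another list, of 563 long noncoding RNAs with other symbols (LINC and SNHG names among them), had 298 tested and 0 called. Of these, 9 were higher and 15 lower in LPS against control (3.02% and 5.03%), with a median of -0.0032. In LPS+RSV against LPS, 26 were higher and 8 lower (8.7% and 2.7%), with a median of 0.026. By direction 62.4% of that list were higher there, beside 68.7% of the -AS1 members.

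Pairs were placed by RefSeq's GRCh38.p14 annotation. Of the 288 pairs, 131 overlapped on opposite strands with starts more than 1000 bases apart, 59 had starts within 1000 bases on opposite strands, 8 lay on opposite strands without overlap and 90 were not placed with the tables used here. Both genes were tested in 180 pairs, of which 74, 39, 5 and 62 belonged to these arrangements. Between LPS+RSV and LPS, 18 of the 39 pairs with adjacent starts had a higher antisense RNA and a lower sense gene. The reverse was found in 3 of the 39, and 18 had both genes changed in the same direction. Over the 39 pairs the median changes were 0.11 for the antisense RNAs and -0.12 for the sense genes. Over all 180 pairs, these 39 among them, 61 had a higher antisense RNA and a lower sense gene, 24 the reverse and 95 the same direction. Over the 62 pairs not placed these counts were 23, 8 and 31, so this lean was not particular to adjacent starts. Taken singly, 68.7% of the tested members and 47.3% of the tested sense genes were higher in this comparison. Among the 74 overlapping pairs, 31 had both genes higher and 19 had a higher antisense RNA with a lower sense gene, with medians of 0.040 and 0.024. The difference between the arrangements was not tested.

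**Figure D4:**
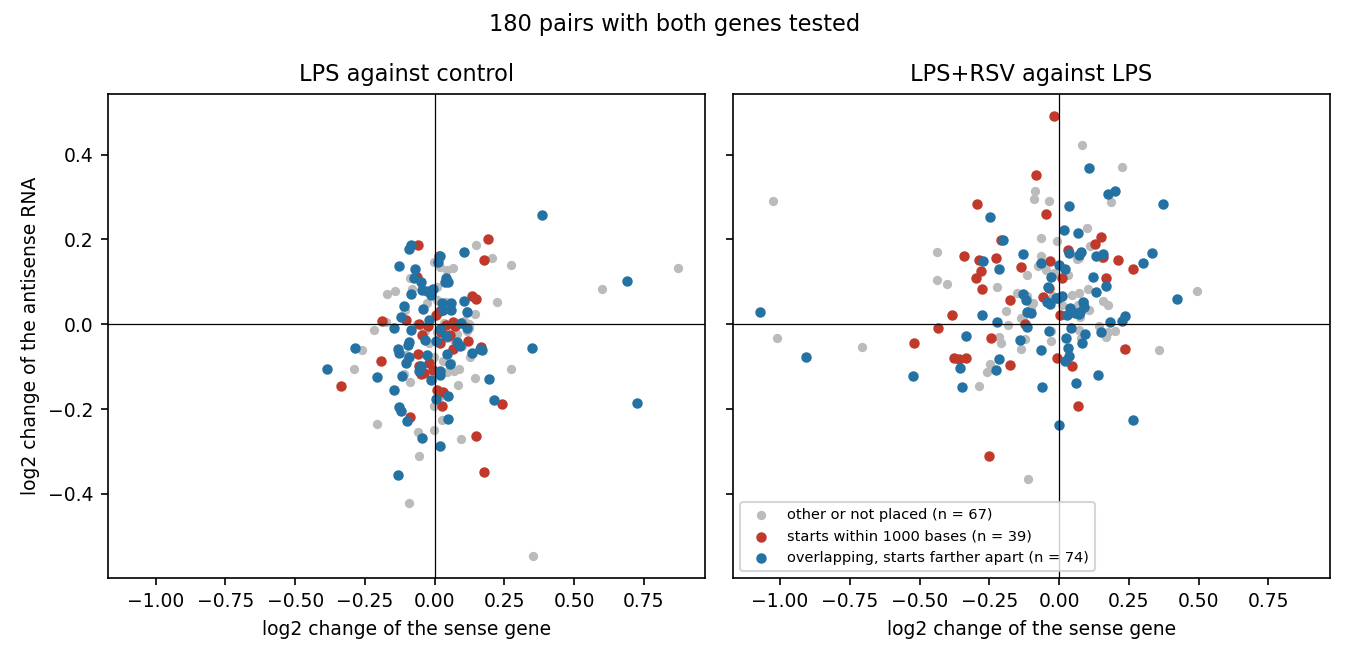
Log2 change of the antisense RNA (vertical axis) against that of its sense gene (horizontal axis) for 180 pairs, in LPS against control (left) and LPS+RSV against LPS (right), coloured by arrangement. In the right panel 18 of the 39 red points, pairs with starts within 1000 bases, lie in the upper left quadrant, as do 61 of all 180 points. There 18 of the red points and 95 of all 180 points have both changes in the same direction.

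For 35 named pairs the change of the antisense RNA was compared with that of the sense gene by an exact permutation test of the per-array difference, 2-sided, over 252 divisions of 10 arrays (smallest possible p 0.00794). Many of these pairs were named for a low p in the same comparisons, so their count is a description: 22 of 105 tests (21.0%) gave an exact p under 0.05, beside 57 of 540 (10.6%) over all 180 pairs. None had a Benjamini-Hochberg adjusted p under 0.05, the smallest being 0.139 over the 105 tests and 0.268 over the 540. The smallest possible exact p was reached by NPPA in LPS against control (difference -0.37) and by DCST1 in LPS+RSV against control (difference 0.24). It was also reached by 4 pairs in LPS+RSV against LPS. SSTR5-AS1 had 0.49 and SSTR5 -0.019, a difference of 0.51. ARHGAP5-AS1 had 0.16 and ARHGAP5 -0.34, WAC-AS1 0.11 and WAC -0.30, and ST7-AS1 0.13 and ST7 -0.14. ARHGAP5 was lowest on LPS+RSV replicate 1, at 7.31 against 7.88 to 8.27 on the other 4 arrays of its group, and its change without that array was -0.18 beside 0.17 for ARHGAP5-AS1.

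URB1-AS1 and URB1 start 121 bases apart and differed in sign in both comparisons that use the LPS arrays. URB1-AS1 read 7.98, 7.73, 7.73, 7.92 and 8.03 in control, 7.64, 7.86, 7.83, 7.67 and 7.45 in LPS and 8.10, 7.83, 7.94, 7.85 and 8.15 in LPS+RSV. URB1 read 6.68, 6.80, 6.61, 6.46 and 6.56, then 6.81, 6.76, 6.81, 6.87 and 7.08, then 6.48, 6.89, 6.68, 6.41 and 6.39. LPS was thus the lowest group for the antisense RNA and the highest for the sense gene, with overlaps in each. The differences of changes were -0.43 for LPS against control (exact p = 0.0317) and 0.58 for LPS+RSV against LPS (exact p = 0.0238), with adjusted p of 0.196 and 0.179 over the 105 tests. With the cell cycle score as a covariate the URB1-AS1 changes were -0.083 and 0.15.

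The widest differences among the 35 pairs were those of CCDC18 and PRC1. Between LPS+RSV and LPS, CCDC18-AS1 had 0.29 and CCDC18 -1.03 (exact p = 0.0159), and PRC1-AS1 had -0.076 and PRC1, a cytokinesis protein, -0.91 (exact p = 0.0476), with adjusted p of 0.152 and 0.227 over the 105 tests. Without LPS+RSV replicate 1 the changes were 0.52 and -0.79 for CCDC18-AS1 and CCDC18, and -0.0063 and -0.88 for PRC1-AS1 and PRC1. CCDC18 read 6.77, 6.96, 6.54, 7.45 and 7.56 in LPS and 5.09, 6.78, 6.36, 6.11 and 5.82 in LPS+RSV, highest on LPS arrays 4 and 5, where the cell cycle score was 0.83 and 0.96. Within groups, CCDC18 and PRC1 correlated with the score at r = 0.87 and 0.99. For CCDC18-AS1 and PRC1-AS1 these values were 0.0081 and 0.19. The part of the score in these differences was not tested. DHRS4-AS1 and DHRS4 were higher together, by 0.28 and 0.37, and their difference had an exact p of 0.603.

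Across arrays, antisense and sense signals were compared as deviations from their group means, which takes the treatment out of the relation. Over 180 pairs the median Pearson r was 0.087, with quartiles of -0.20 and 0.36, and 99 pairs were positive. The median was 0.19 over the 74 overlapping pairs and -0.019 over the 39 with adjacent starts. With the cell cycle score removed from both genes, these medians were 0.098 and 0.037. The difference between the arrangements was not tested here either. Permutation within groups (100000 draws), adjusted over 180 pairs, gave 3 pairs under 0.05, all positive and all overlapping, and 0 negative pairs. At unadjusted permutation p under 0.05 there were 17 positive and 10 negative. Probe positions are not given in the sources used here. Which strand and exons each probe set covers, and whether probes of overlapping genes lie in shared sequence, was therefore not checked. Any part of this in a positive r was not tested.

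DCST1-AS1 and DCST1, a membrane protein gene, had a Pearson r of 0.86 and a Spearman coefficient of 0.87, with adjusted permutation p of 0.0426 and 0.0558. VAC14-AS1 and VAC14, a scaffold of the lipid kinase PIKfyve, had a Pearson r of 0.85 and a Spearman coefficient of 0.84 (adjusted permutation p 0.0426 and 0.0288). GALNT9-AS1 and GALNT9, an enzyme that starts O-glycans, had a Pearson r of 0.79 and a Spearman coefficient of 0.85 (adjusted permutation p 0.0426 and 0.0288). Without the 2 arrays farthest from the sense gene's median, r was 0.76, 0.69 and 0.64. Within control, LPS and LPS+RSV, r was 0.58, 0.87 and 0.91 for DCST1, 0.93, 0.44 and 0.93 for VAC14 and 0.90, 0.92 and 0.52 for GALNT9, over 5 arrays each. With the cell cycle score removed from both, r was 0.84, 0.75 and 0.75, and GALNT9 alone of the 3 had an adjusted permutation p under 0.05 (0.0306, as had STX18). Without LPS replicates 1 and 2, VAC14 alone of the 3 did (0.0396, as did ZSWIM8).

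**Figure D5:**
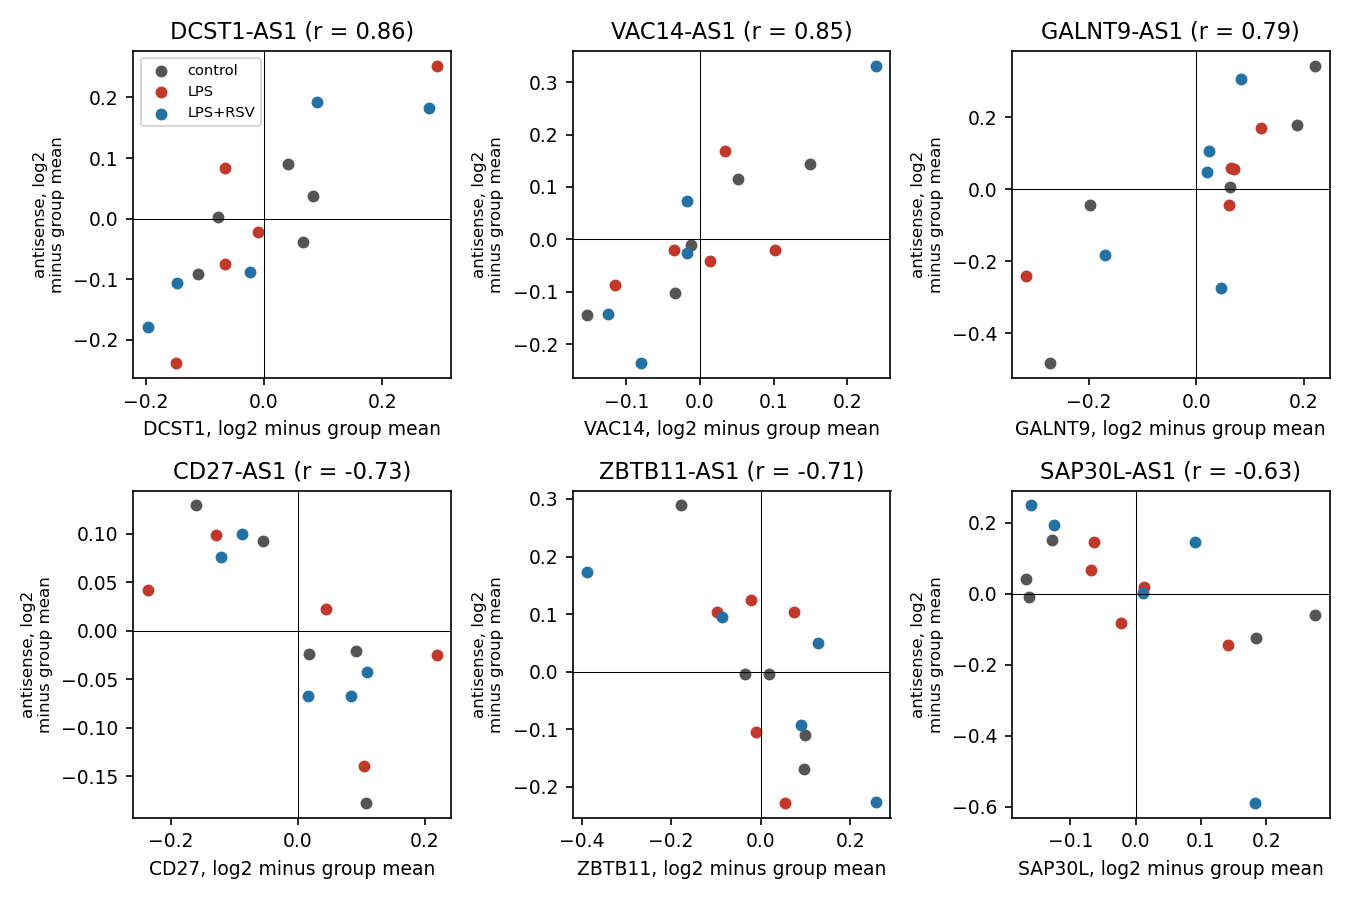
Antisense signal (vertical axis) against sense signal (horizontal axis), each as log2 deviation from its group mean, for 15 arrays coloured by group, in 3 positive pairs (top) and 3 negative pairs (bottom). Points rise together for DCST1 (r = 0.86), VAC14 (0.85) and GALNT9 (0.79), and run opposite for CD27 (-0.73), ZBTB11 (-0.71) and SAP30L (-0.63).

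PCNA-AS1 and PCNA, the sliding clamp of replication, had r = 0.79 (adjusted permutation p = 0.0522), and EGFR-AS1 and EGFR, the growth factor receptor, r = 0.79 (0.0574). PCNA is itself among the cell cycle score's genes. With the score removed, r was 0.11 for PCNA and 0.37 for EGFR. The lowest correlations were -0.73 for CD27, a lymphocyte receptor gene, -0.72 for TMEM44, -0.71 for ZBTB11, a zinc finger gene, -0.63 for URB1 and -0.63 for SAP30L, a Sin3 corepressor subunit, with adjusted permutation p from 0.0522 to 0.174 and Spearman coefficients from -0.76 to -0.62. Without the 2 farthest arrays they ranged from -0.88 (CD27) to -0.43 (URB1). With the score removed, r was -0.72 for CD27, -0.53 for ZBTB11 and -0.49 for SAP30L, against -0.29 for TMEM44 and -0.24 for URB1.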

How the data were processed

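Per the labels' protocols, sense-strand cDNA was made from 300 ng of total RNA of each of 15 Caco-2 samples, biotin-labelled and read on an Affymetrix array that covers whole transcripts. The deposited values are log2 expression, 1 per array and probe set (53617 rows), made with RMA per the submitters' processing notes, its version not given in the sources used here. Gene names are those of the platform annotation and may be outdated; 37519 rows were unnamed here. All coordinates are RefSeq's (GRCh38.p14), since no source used here gives the array's build.

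Means of the 3 groups were fitted per gene by limma's lmFit and eBayes (version 3.58.1; R 4.3.3) over the 15 arrays, and p-values were adjusted by Benjamini-Hochberg over 11804 genes. A called gene had an adjusted p under 0.05. Pairs were tested with permutations in Python 3.11.15. Scripts were tested on simulated data. Same-numbered arrays of different groups had deviations correlated from -0.54 to 0.71 over 15 pairs, so the numbers were not taken to pair samples. Named members were called members, or the 6 of lowest p per direction and comparison, the 10 brightest, the list of 25, and the 5 pairs of highest and of lowest r; others named for lack of overlap, for passing in both LPS comparisons, or among the alternatives were chosen after their values were seen. Members and lists were chosen with earlier results of these data known. The precision is limited by 5 arrays a group. Alternatives covered the filter, rows per symbol, normalization, moderation, array weights, a 2-group fit, the replicate number as a block, the cell cycle score and arrays left out.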

Additional observations from a re-analysis of the deposited data

Results flagged for a closer look

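In 162 groups of 5 arrays examined for the named members, 10 had an array far from the other 4, with a gap over 0.71 of the group's range; chance flags about 1 in 20 groups. In 5 of the 10 that array was LPS+RSV replicate 1. On that array CCDC18-AS1 read 6.37 against 7.36 to 7.72 on the other 4, and NPSR1-AS1 read 4.89 against 5.87 to 6.26. It was the highest of its group for DLG1-AS1 (5.55, next 5.20), LBX2-AS1 (8.42, next 8.13) and NCAM1-AS1 (5.88, next 5.57). Control replicate 5 was lowest for PCCA-AS1 (4.94, next 5.27) and highest for ST7-AS1 (5.65, next 5.39). Control replicate 2 was highest for PRC1-AS1 (6.36, next 6.21). LPS replicate 5 was lowest for SLC25A25-AS1 (6.75, next 7.03), and LPS replicate 2 was highest for VAC14-AS1 (6.31, next 6.12).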

How the results depend on the processing

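Of 763 alternative values for 36 named changes, 753 kept their direction and side of the threshold, 10 passed it where the main value did not, and 0 reversed. No main value passed the threshold, so keeping its side meant only staying uncalled, and no call could be lost. The 36 were named for a low p in their direction, so these counts are no measure of how firm the changes are. The 10 were ZBED5-AS1 in LPS against control with array weights (-0.40, limma adjusted p = 0.0460), and, in LPS+RSV against LPS, ZBED5-AS1, SSTR5-AS1, TMEM44-AS1 or DHRS4-AS1 under quantile normalization, array weights, or without LPS replicate 3 or LPS+RSV replicate 2. Members called in LPS against control numbered 0 in the main fit and 1 with array weights; for LPS+RSV against LPS they numbered 0, 2 under quantile normalization and 1 with array weights. At unadjusted p under 0.05 in LPS against control, 3 higher members became 6 with no filter, 1 under quantile normalization, 7 with array weights, 8 with the cell cycle score and 5 without LPS replicates 1 and 2, and 17 lower members became 27 with array weights. In LPS+RSV against LPS, 30 higher became 17 at a 60th percentile filter (149 members tested), 16 with the cell cycle score and 16 without LPS replicates 1 and 2, and 5 lower became 11 with no filter, 3 at the 60th percentile, 8 under cyclic loess, 9 with array weights and 3 with the score. In LPS+RSV against control, 14 higher became 5 at the 60th percentile, 8 under cyclic loess and 8 with array weights, 5 lower became 9, 8 and 8 with no filter, cyclic loess and array weights, and the median of 0.023 was -0.0072 under cyclic loess. The cause of these differences was not tested.

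With each array left out in turn, LPS against control gave 0 to 0 called, 1 to 6 higher, 13 to 25 lower and medians of -0.046 to -0.022; LPS+RSV against LPS gave 0 to 3 called, 19 to 41 higher, 2 to 7 lower and medians of 0.037 to 0.066; LPS+RSV against control gave 0 to 0 called, 9 to 20 higher, 3 to 7 lower and medians of 0.0077 to 0.042. Sense genes called in LPS+RSV against LPS ranged from 0 to 3 (CIRBP, DSG2 and SLC60A1 without LPS replicate 3; SLC60A1 and USP2 without LPS+RSV replicate 2) and other long noncoding RNAs from 0 to 2 (LINC01569 and SNHG8), and with the cell cycle score 1 sense gene, VWA8, was called for LPS against control. The replicate number as a block gave 2 higher and 17 lower for LPS against control, 27 and 5 for LPS+RSV against LPS, and 10 and 5 for LPS+RSV against control, with 0 called in each; same-numbered arrays did not all deviate together (correlations from -0.54 to 0.71), so the samples share only a number. An alternative chosen after seeing the data left LPS+RSV replicate 1 out of 14 named pair differences with an exact p under 0.05; all 14 kept their direction, and that of ARHGAP5 was 0.35 beside 0.50.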

Other observations

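Where a member had more than 1 row, the rows could differ. DHRS4-AS1 had a dim further row with a mean of 4.55, whose log2 change in LPS+RSV against LPS was 0.16 beside 0.28 in the brighter row. ZEB2-AS1 had -0.35 in the brighter row and 0.097 in the dimmer one in LPS against control, and 0.35 and 0.11 in LPS+RSV against LPS. KANSL1-AS1 rows had 0.29 and 0.29 in LPS+RSV against LPS, and RPL26L1-AS1 rows of nearly equal signal had 0.26 and 0.045. HLA-F-AS1 had 6 rows with means from 5.97 to 7.83, of which 3 held the same values.

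LINC01569 and SNHG8, long noncoding RNAs outside the -AS1 names, came close to the threshold in LPS+RSV against LPS. LINC01569 was higher by 0.50 ± 0.10 (limma adjusted p = 0.0667), and SNHG8, host gene of a small nucleolar RNA, by 0.45 ± 0.10 (limma adjusted p = 0.0711). Among sense genes, SLC60A1 was higher by 0.38 ± 0.08 and USP2, a deubiquitinase, by 0.49 ± 0.11 (limma adjusted p = 0.0667 and 0.0756). USP2-AS1 was tested, and SLC60A1-AS1, with a mean log2 signal of 3.78, was below the filter.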
